A study of Mus musculus with 8 samples.

Results

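The Hox genes of the 4 mouse clusters were examined in purified subpopulations of a T cell lymphoma. Members were all genes whose single symbol in the platform annotation is Hoxa, Hoxb, Hoxc or Hoxd followed by a number. This gave 31 of the 12393 genes measured, namely 9 Hoxa, 9 Hoxb, 6 Hoxc and 7 Hoxd genes, with 37 probe sets. RefSeq lists 39 such genes, and the others were not analysed here. RNA came from stable mouse lymphoma lines deficient in Snf5, which belongs to the core of SWI/SNF, a complex that remodels chromatin, and was hybridised to Affymetrix Mouse 430A 2.0 arrays. Cells purified for high surface CD44 (CD44hi, 4 arrays) were set against cells purified for low CD44 (CD44lo, 4 arrays), and both groups carry the Snf5 deficiency. CD44 is a hyaluronan receptor of memory and activated T cells. The labels give no strain, age, driver of the deletion or number of lines, and do not say whether replicates were grown or taken separately. The p-values therefore speak for the scatter of these 8 arrays alone, and that scatter may be technical.

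Hox proteins are transcription factors with a homeodomain that set position along the body axis. Their genes lie in 4 clusters, within which low-numbered genes are usually activated first and furthest forward and high-numbered genes later and further back. In blood cells many Hox genes are active in stem and early progenitor cells and are switched off as T cells mature. Trithorax (MLL) and Polycomb complexes hold the clusters in active and silent states, and SWI/SNF is known to oppose Polycomb.

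Most Hox genes were dim in these cells, a few of the Hoxb, Hoxc and Hoxd clusters were bright, and the genes that passed the test between the subpopulations were 3 adjacent ones. Hoxd9, Hoxd10 and Hoxd11 were higher in CD44hi by 2.02-fold, 2.06-fold and 1.88-fold. Hoxd12 and Hoxd13 on one side and Hoxd8 and Hoxd1 on the other did not pass, which does not show all of them unchanged. The 95% interval of Hoxd8, -0.60 to 1.31, holds the differences of the called genes, and Hoxd1 and Hoxd13 lay below or near background. Hoxd3 and Hoxd4, between Hoxd8 and Hoxd1, have only shared probe sets on this array and were not analysed. In the Hoxc cluster, Hoxc4, Hoxc6, Hoxc8 and Hoxc9 had lower means in CD44hi, with log2 differences of -0.22 to -0.39, and did not pass. The listed neighbours of that cluster also had lower means, with differences of -0.01 to -0.31, and none was called.

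The promoters of the 3 called genes and of the nearest Hoxd genes on either side are shown so that the called genes can be set against those that flank them. Each window runs from 250 bases before to 50 bases after the start of the gene, on the plus strand of RefSeq assembly GRCm38.p6, with CG dinucleotides in capitals. RefSeq windows were found for 22 of the 39 Hox genes.
Hoxd12, chr2:74674763-74675062: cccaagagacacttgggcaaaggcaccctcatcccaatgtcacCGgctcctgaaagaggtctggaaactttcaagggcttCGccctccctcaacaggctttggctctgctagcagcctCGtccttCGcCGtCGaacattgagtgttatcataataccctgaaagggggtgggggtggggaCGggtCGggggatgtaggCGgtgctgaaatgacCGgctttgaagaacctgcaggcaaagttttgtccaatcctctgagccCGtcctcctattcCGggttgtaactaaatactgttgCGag
Hoxd11, chr2:74682073-74682372: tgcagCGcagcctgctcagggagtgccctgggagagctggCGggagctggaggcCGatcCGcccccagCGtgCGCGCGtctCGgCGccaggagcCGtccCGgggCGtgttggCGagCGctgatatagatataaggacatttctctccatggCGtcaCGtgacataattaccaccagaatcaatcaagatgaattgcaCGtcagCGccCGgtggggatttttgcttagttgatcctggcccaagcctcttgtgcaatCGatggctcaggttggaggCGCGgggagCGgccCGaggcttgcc
Hoxd10, chr2:74691641-74691940: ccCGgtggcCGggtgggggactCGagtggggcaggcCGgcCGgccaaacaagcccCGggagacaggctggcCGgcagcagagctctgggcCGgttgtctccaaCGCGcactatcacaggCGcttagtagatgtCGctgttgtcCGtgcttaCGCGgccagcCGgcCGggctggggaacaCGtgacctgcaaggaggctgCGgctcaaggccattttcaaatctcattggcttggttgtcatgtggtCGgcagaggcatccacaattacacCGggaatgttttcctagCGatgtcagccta
Hoxd9, chr2:74697513-74697812: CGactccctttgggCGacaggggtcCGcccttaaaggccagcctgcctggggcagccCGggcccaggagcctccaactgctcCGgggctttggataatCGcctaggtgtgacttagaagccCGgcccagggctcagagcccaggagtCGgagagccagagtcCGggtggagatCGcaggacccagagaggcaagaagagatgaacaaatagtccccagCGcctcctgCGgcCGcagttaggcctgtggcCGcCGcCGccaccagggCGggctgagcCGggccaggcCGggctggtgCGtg
Hoxd8, chr2:74704365-74704664: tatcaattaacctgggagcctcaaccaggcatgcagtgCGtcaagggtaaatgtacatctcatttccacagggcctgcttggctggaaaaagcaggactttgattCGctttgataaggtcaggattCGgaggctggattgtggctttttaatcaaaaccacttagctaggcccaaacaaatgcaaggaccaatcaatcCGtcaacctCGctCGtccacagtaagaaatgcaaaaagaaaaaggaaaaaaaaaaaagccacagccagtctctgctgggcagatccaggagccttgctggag
The windows of Hoxd11, Hoxd10 and Hoxd9 held 25, 22 and 20 CG dinucleotides, and those of Hoxd12 and Hoxd8 held 13 and 6. A second Hoxd11 window, further towards Hoxd12, held 4. The windows of Hoxd13 and Hoxd1, which were not called, held 37 and 29, more than those of the called genes, so the count does not set the called genes apart within the cluster. The median over all 32851 windows was 7, and over the 24 Hox windows 14.5. Hoxd11 and Hoxd10 start 9.57 kb apart, counted from the Hoxd11 window shown, and Hoxd10 and Hoxd9 start 5.87 kb apart. The Sp1-like motif GGGCGG, read on both strands, occurred in the shown windows of Hoxd11 and Hoxd9 and not in that of Hoxd10, Hoxd12 or Hoxd8. It was present in 41.7% of Hox windows and 35.7% of all windows, and it overlaps the CG count. The TATA motif TATAAA was in none of these 5 windows, in 16.7% of Hox windows and in 13.6% of all. The GATA motif AGATAA was in 0 of the 24 Hox windows and in 11.2% of all windows. The EBF1-like motif CCCNNGGG was in none of the 5 windows shown, in 16.7% of Hox windows and in 13.7% of all. The YY1-like motif CCATNTT was in the Hoxd10 window, in 8.33% of Hox windows and in 16.1% of all. The PBX-HOX-like motif TGATTNAT was in the Hoxd11 window shown, in 8.33% of Hox windows and in 3.22% of all. All motifs were read on both strands, and these matches describe letters in these windows and say nothing of binding.

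Intensities are given as log2 of the deposited values, 1 probe set a gene (that with the highest mean over all arrays). Probes differ in how strongly they bind, so levels of different genes give brightness only and no order of abundance. Array medians of 15 probe sets for bacterial transcripts, used as a mark of background, lay between 4.12 and 4.38. By that mark 25 of 31 Hox genes were above the control median on every array. Hoxb7 and Hoxd1 had both group means below the highest of these medians. Lying above this mark does not show that a gene was detected, since some of the control probe sets themselves lie above their median. The means of 5 genes lay above the median of all genes, 9.03: Hoxb4, Hoxc4, Hoxc8, Hoxc9 and Hoxd10. Cd44 was at 11.44 in CD44hi and 5.55 in CD44lo, in the direction of the labels. Of 9 measured T cell markers, none called by limma or under an unadjusted p of 0.05, the CD3 chains, Cd247, Cd8a (13.86 and 13.87) and Cd8b1 were bright. Cd5 (4.32 and 4.29) and Thy1 (4.47 and 4.55) lay close to background and Cd2 (5.92 and 5.68) was dim, so these defining markers of the labelled cell type gave little or no signal. The level of Smarcb1, the gene of Snf5, does not check the labels, since both groups are deficient.

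**Figure D1:**
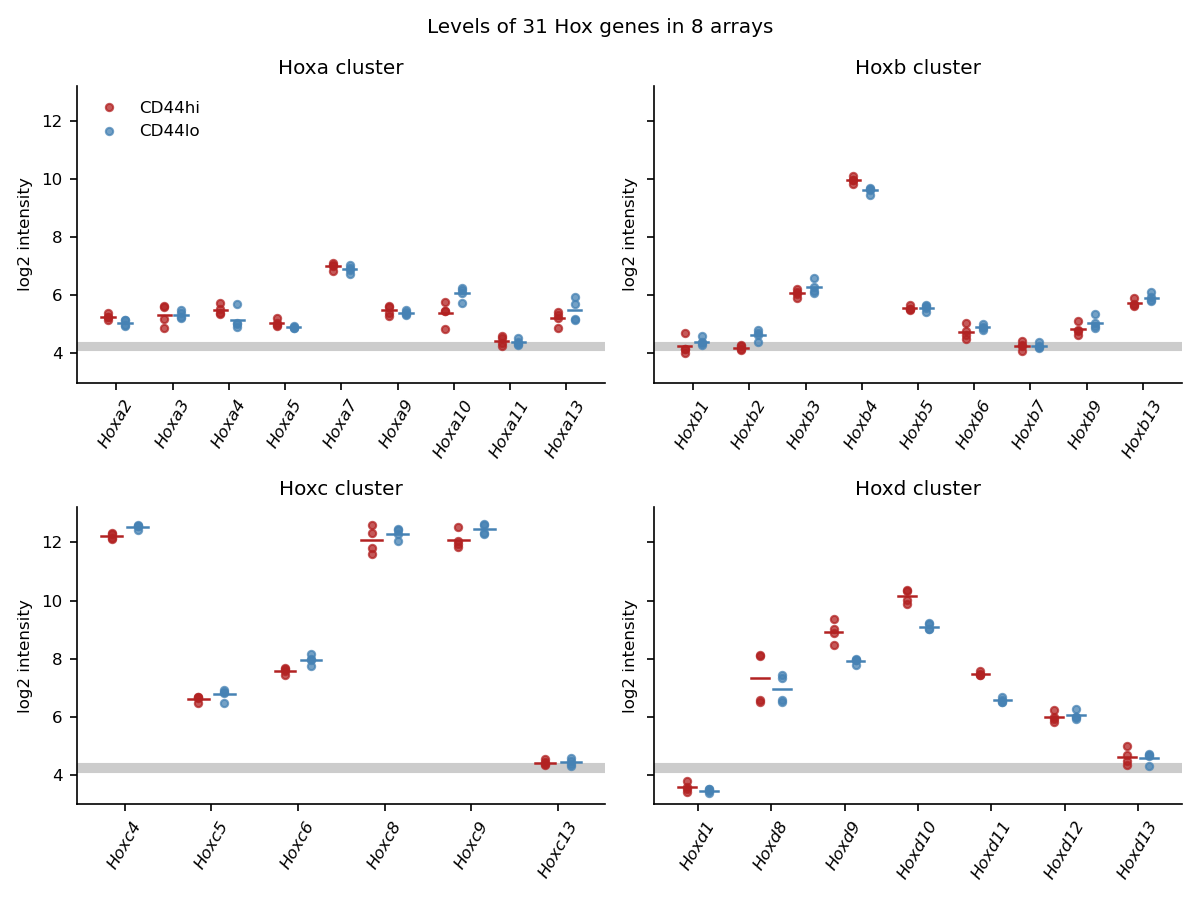
Log2 intensity of the 31 Hox genes (y axis) in cluster order (x axis), with 1 point for each CD44hi (red) and CD44lo (blue) array and a bar at the mean of 4. The grey band from 4.12 to 4.38 is the range of the bacterial medians. Hoxc4, Hoxc8, Hoxc9, Hoxb4 and Hoxd10 are the 5 genes above 9.03, and the groups part clearly at Hoxd9, Hoxd10 and Hoxd11.

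Of the 31 Hox genes 3 were higher and 0 lower in CD44hi by limma, at a p under 0.05 after Benjamini-Hochberg adjustment over 12393 genes. Over all genes 2.03% were higher and 1.78% lower, 3.81% in all. At an unadjusted p under 0.05, 5 Hox genes were higher and 5 lower, against 6.32% and 6.29% of all genes. The median log2 difference of the Hox genes was -0.014, and that of all genes -5.86e-05. Positive differences were found in 14 Hox genes and negative ones in 17. With the replicate number as a block, 3 were higher and 1, Hoxa10, was lower, where 3.08% and 3.11% of all genes were called. In 8 Hox genes, or 25.8%, the groups did not overlap, every CD44hi array being above, or every one below, all CD44lo arrays, against 10.3% of all genes. For a single gene an exact two-sided permutation test over 70 assignments cannot go below p = 0.0286. Groups of 4 that do not overlap always give that value, so it adds no support for these 8 genes.

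**Figure D2:**
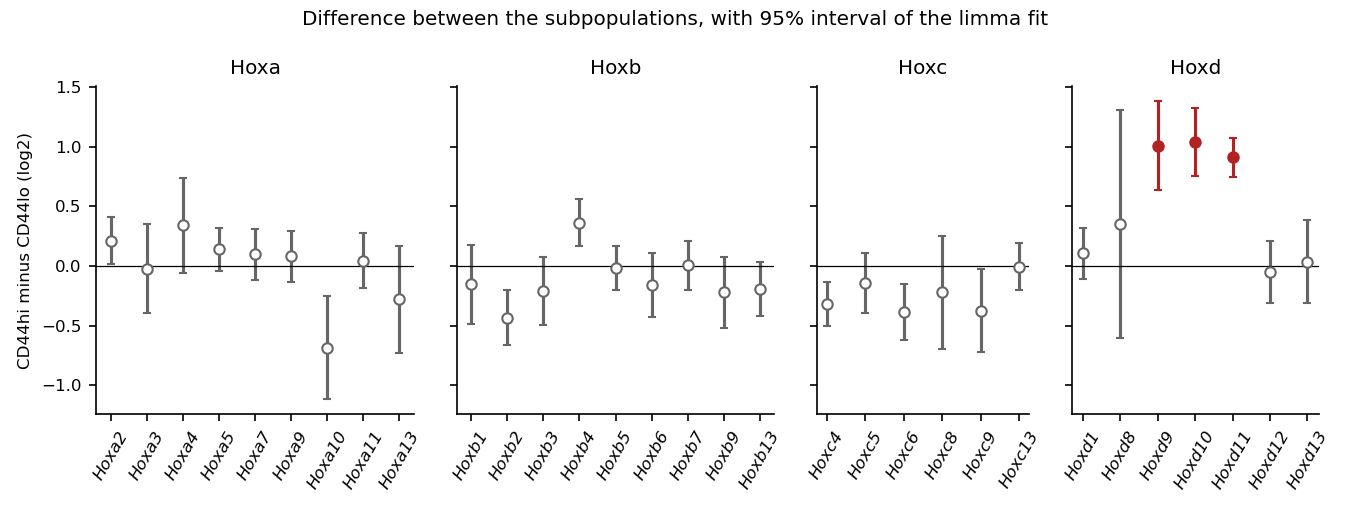
Log2 difference CD44hi minus CD44lo (y axis) of each Hox gene by cluster and position (x axis), with the 95% interval of the limma fit. Filled red points are the 3 genes with adjusted p under 0.05, Hoxd9 to Hoxd11, at 0.91 to 1.04.

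In the Hoxd cluster, Hoxd10, a gene of limb and posterior trunk patterning, was at 9.87, 10.38, 10.02 and 10.32 in CD44hi replicates 1 to 4 and at 9.004, 9.18, 9.01 and 9.23 in CD44lo. All CD44hi arrays lay above all CD44lo arrays, with an SD of 0.24 in CD44hi and 0.12 in CD44lo. The log2 difference was 1.04 (SE 0.13, limma adjusted p = 0.0019). Hoxd9, its neighbour towards the start of the cluster, was at 8.48, 9.01, 8.89 and 9.36 in CD44hi and at 7.80, 7.94, 7.97 and 7.98 in CD44lo. The groups did not overlap, and CD44hi spread more widely (SD 0.37) than CD44lo (SD 0.09). Its difference was 1.01 (SE 0.17, limma adjusted p = 0.0097). Between arrays 1 and 3 alone it was 0.80 (limma adjusted p = 0.0567) and between arrays 2 and 4 alone 1.22 (limma adjusted p = 0.0117). Hoxd11, which patterns limb and kidney, was at 7.47, 7.44, 7.58 and 7.45 in CD44hi and at 6.57, 6.53, 6.68 and 6.51 in CD44lo. Here the arrays of each group were close together and the gap was about the same at every replicate number, 0.90, 0.92, 0.90 and 0.93. The difference was 0.91 (SE 0.07, limma adjusted p = 0.00013). RNA was measured in bulk, so fewer cells with the transcript and less transcript per cell cannot be told apart. Each of the 3 genes has 1 probe set with a single symbol on this array.

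Arrays 1 and 3 resembled each other across the groups, as did arrays 2 and 4, and what the numbers stand for is not given in the sources used here. Deviations from the group means correlated between the groups at 0.37 to 0.57 within these pairs of numbers and at -0.38 to -0.56 between them. If each such pair is averaged, leaving 2 values a group, none of the 3 genes passed (limma adjusted p = 0.351 for Hoxd9, 0.273 for Hoxd10 and 0.128 for Hoxd11). Blocking those averages by pair, all 3 passed (limma adjusted p = 0.0350, 0.0181 and 0.0188). In a fit to all 8 arrays that blocks by pair, where 4.21% of all genes were called higher and 4.39% lower, the 3 genes and Hoxb4 were higher and Hoxa10, Hoxb2, Hoxc4 and Hoxc6 lower. These 3 fits were added once the data had been seen.

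On the high-numbered side, Hoxd12, a gene of digit patterning, was at 6.01, 6.24, 5.93 and 5.81 in CD44hi and at 6.27, 6.01, 5.996 and 5.93 in CD44lo. These values overlapped, and the difference was -0.05 with a 95% interval from -0.31 to 0.21, whose upper bound lies below the difference of each of the 3 called genes. Hoxd13, the last gene of the cluster and a gene of digits and genitalia, had a difference of 0.04 with an interval from -0.31 to 0.38, at means of 4.63 and 4.60 close to background. Hoxd1, at the opposite end, lay below the bacterial mark on every array, with means of 3.57 and 3.46, so no level can be read there.

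Hoxd8, next to Hoxd9, followed the replicate number first. It was at 6.58 and 6.53 in CD44hi arrays 1 and 3 and at 8.09 and 8.12 in arrays 2 and 4. In CD44lo it was at 6.53 and 6.58 in arrays 1 and 3 and at 7.46 and 7.33 in arrays 2 and 4. Even-numbered arrays were thus the brighter ones in both groups, and among them CD44hi lay above CD44lo at both numbers. Over all 8 arrays the difference was 0.35 (SE 0.42, limma adjusted p = 0.863), with a wide 95% interval from -0.60 to 1.31. Between arrays 1 and 3 it was 0.0012 and between arrays 2 and 4 it was 0.71. The change between the pairs, 0.71 (SE 0.11), passed the interaction test of limma (adjusted p = 0.0388), and Hoxd8 was the 1 Hox gene that did, where 1.52% of all genes passed. Between arrays 2 and 4 alone Hoxd8 was called higher (limma adjusted p = 0.0265), where 2.47% of all genes were higher and 2.15% lower. The grouping of the numbers was taken from earlier results on these arrays. The count of Hox genes with such a change was 0 when CD44hi replicate 1 or 3 or any CD44lo array was left out, 1 without CD44hi replicate 4 and 2 without CD44hi replicate 2.

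**Figure D3:**
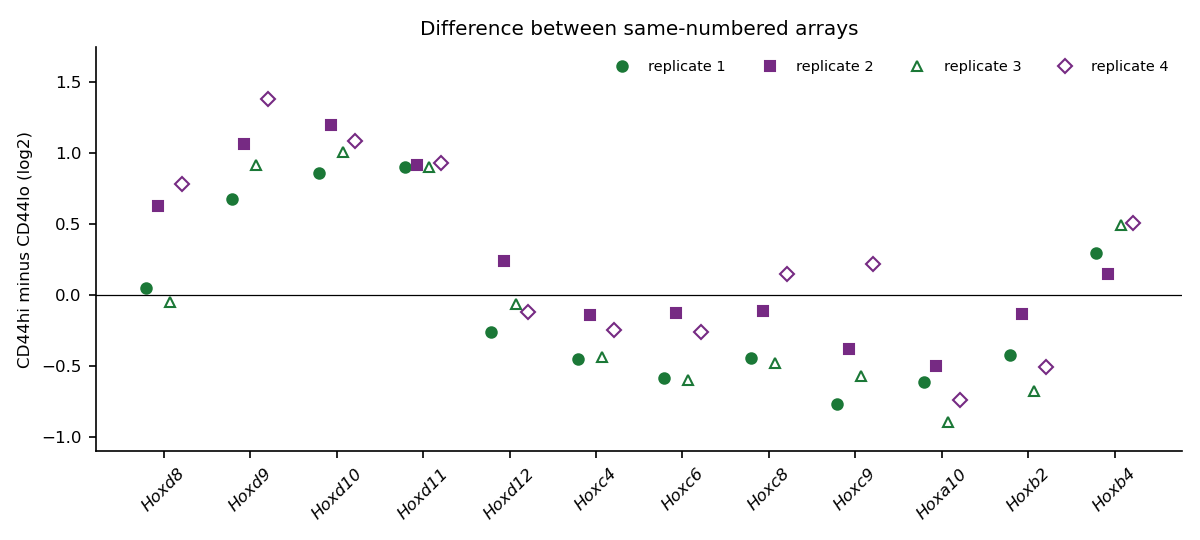
Log2 difference between the CD44hi and the CD44lo array of the same replicate number (y axis) for 12 Hox genes (x axis), replicates 1 and 3 in green and 2 and 4 in purple. Hoxd11 has nearly the same difference at each number (0.90 to 0.93), Hoxd8 differs at numbers 2 and 4 (0.63 and 0.78) and not at 1 and 3 (0.05 and -0.05), and Hoxc4 and Hoxc6 lie below 0 at every number.

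Genes next to the clusters were listed after the Hox values had been seen, as the 3 nearest measured protein-coding genes on each side by RefSeq order. Of these 24 genes 0 were called by limma with or without the replicate block, and 0 had groups that do not overlap. Over all genes 3.81% were called, or 3.08% higher and 3.11% lower with the replicate block, and 10.3% had groups that do not overlap. With 24 genes, counts of 0 lie near these shares and do not set the neighbours apart from other genes. At an unadjusted p under 0.05, Skap2 was higher and Atf7 lower, where 6.32% of all genes were higher and 6.29% lower. Beside the Hoxd cluster, Evx2, a homeobox gene next to Hoxd13, was at 6.23 and 6.24 in CD44hi and CD44lo and the mitochondrial gene Mtx2, next to Hoxd1, at 11.48 and 11.31. Beside the Hoxc cluster every listed neighbour had a lower mean in CD44hi. The differences were -0.31 for Atf7, -0.28 for Npff, -0.26 for Nfe2, -0.22 for Cbx5, -0.18 for Atp5g2 and -0.01 for Hnrnpa1. Lower means in CD44hi were thus also found beside the Hoxc genes, though none of these neighbours was called. The share of all genes with a lower mean was not computed.

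**Figure D4:**
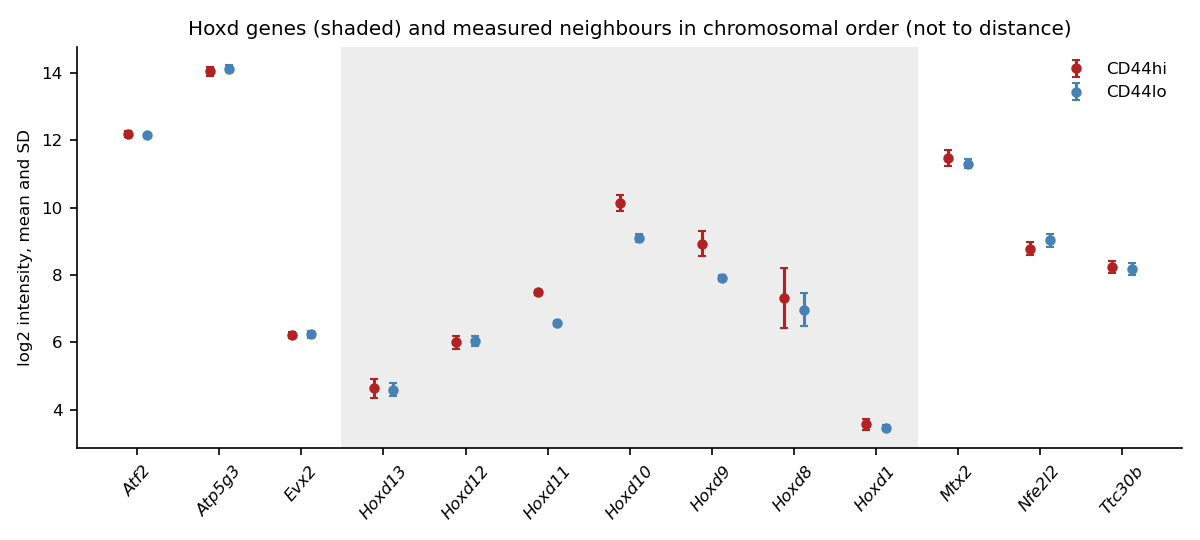
Mean log2 intensity with SD over 4 arrays (y axis) of the measured Hoxd genes (shaded) and 3 measured neighbours on each side, in chromosomal order and not to distance (x axis), for CD44hi (red) and CD44lo (blue). The groups part at Hoxd11, Hoxd10 and Hoxd9 by 0.91 to 1.04, and the means of Evx2 and Mtx2 differ by -0.01 and 0.17.

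The Hoxc cluster held 3 of the 5 genes above the median of all genes. Hoxc4, a gene expressed in lymphoid cells, was at 12.12, 12.28, 12.15 and 12.33 in CD44hi and at 12.57, 12.43, 12.58 and 12.58 in CD44lo. The CD44hi arrays all lay below the CD44lo arrays, and the difference of -0.32 (SE 0.08) did not pass (limma adjusted p = 0.0725). Blocked by pair it passed as lower on the 8 arrays and not on the averaged ones (limma adjusted p = 0.0317 and 0.320). Hoxc6 was at 7.42, 7.64, 7.58 and 7.69 in CD44hi and at 8.01, 7.76, 8.17 and 7.95 in CD44lo. The groups were apart by a narrow margin, and the difference of -0.39 (SE 0.10) did not pass (limma adjusted p = 0.0920). Blocked by pair, Hoxc6 passed as lower on the 8 arrays and not on the averaged ones (limma adjusted p = 0.0492 and 0.303). Its 3 probe sets disagreed. The one used here has a name ending in x_at, which marks probes that may match other transcripts. In a fit of all probe sets, another Hoxc6 probe set had a difference of -0.64 (SE 0.12, limma adjusted p = 0.0195), and the last one had -0.07 (SE 0.09, limma adjusted p = 0.880). Hoxc4, Hoxc5 and Hoxc6 can share upstream exons, so the signal of a single gene in this stretch is uncertain.

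Hoxc8, a gene of thoracic patterning, was at 11.60, 12.31, 11.81 and 12.59 in CD44hi and at 12.04, 12.42, 12.29 and 12.44 in CD44lo. The groups overlapped, with arrays 1 and 3 lowest in each, and the difference was -0.22 (SE 0.21). Hoxc9 was at 11.84, 11.95, 12.05 and 12.52 in CD44hi and at 12.61, 12.32, 12.62 and 12.30 in CD44lo. In CD44hi replicate 4 was the highest array, above 2 of the CD44lo arrays, and the difference was -0.37 (SE 0.15, limma adjusted p = 0.344). Between arrays 1 and 3 alone Hoxc4, Hoxc6 and Hoxc9 passed as lower in CD44hi, at -0.44, -0.59 and -0.67 (limma adjusted p = 0.0249, 0.0350 and 0.0231), where 3.41% of all genes were higher and 3.63% lower. Between arrays 2 and 4 the same 3 genes had differences of -0.19, -0.19 and -0.08. The change between the pairs did not pass for any of the 3 (limma interaction adjusted p = 0.408, 0.289 and 0.348). Hoxc5 was at 6.70, 6.68, 6.65 and 6.49 in CD44hi and at 6.82, 6.47, 6.86 and 6.93 in CD44lo. Replicate 2 was the low array of CD44lo, and the difference was -0.14. Hoxc13, the last gene of the cluster, was near background, at 4.43 in both groups.

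In the Hoxb cluster Hoxb4, which promotes self-renewal of blood stem cells when overexpressed, was the bright member. It was at 9.96, 9.84, 10.12 and 9.97 in CD44hi and at 9.66, 9.69, 9.62 and 9.46 in CD44lo. The groups did not overlap, and the difference of 0.36 (SE 0.09) was just short of the threshold (limma adjusted p = 0.0587). Blocked by pair, it passed as higher on the 8 arrays (limma adjusted p = 0.0200) and not on the averaged ones (limma adjusted p = 0.193). The other Hoxb4 probe set was dimmer, with overlapping groups and a difference of 0.17. Hoxb2, a hindbrain gene, was at 4.29, 4.26, 4.14 and 4.12 in CD44hi and at 4.71, 4.39, 4.82 and 4.63 in CD44lo. Its difference was -0.43 (SE 0.10, limma adjusted p = 0.0529), and CD44hi replicates 3 and 4 lay below the bacterial median of their own arrays, so the size is uncertain. It passed as lower when blocked by pair on the 8 arrays (limma adjusted p = 0.0165), and not on the averages (limma adjusted p = 0.166). Hoxb3 was at 6.12, 6.04, 5.90 and 6.21 in CD44hi and at 6.27, 6.60, 6.08 and 6.15 in CD44lo. Hoxb13, a gene of prostate and tail, was at 5.69, 5.68, 5.64 and 5.92 in CD44hi and at 6.13, 5.93, 5.81 and 5.83 in CD44lo. The groups of both genes overlapped, with differences of -0.21 and -0.19. Hoxb9 was at 4.65, 4.80, 5.10 and 4.76 in CD44hi and at 5.04, 4.95, 4.86 and 5.34 in CD44lo. Hoxb6 was at 4.62, 4.51, 4.76 and 5.06 against 4.81, 4.90, 4.86 and 5.01. Hoxb1 was at 4.17, 4.01, 4.69 and 4.15 against 4.59, 4.29, 4.39 and 4.36. These 3 dim genes had overlapping groups and differences of -0.22, -0.16 and -0.15. Hoxb5 and Hoxb7 differed by -0.01 and 0.01.

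All measured Hoxa genes were dim. Hoxa10, a regulator of myeloid cells and the uterus, was at 5.45, 5.76, 4.86 and 5.45 in CD44hi and at 6.06, 6.26, 5.75 and 6.19 in CD44lo. The groups touched, the highest CD44hi array being just above the lowest CD44lo array, while at each replicate number CD44hi had the smaller value, with differences of -0.50 to -0.89. The difference was -0.69 (SE 0.19, limma adjusted p = 0.108), and with the replicate block it passed as lower (SE 0.09, limma adjusted p = 0.0061). Hoxa9, a gene of blood progenitors and a frequent oncogene in leukaemia, was at 5.48 and 5.40 (difference 0.08, 95% interval from -0.13 to 0.30). A second Hoxa9 probe set had a difference of -0.28, and lay above the bacterial median on 5 of 8 arrays. Hoxa7 ranged from 6.84 to 7.12 in CD44hi and from 6.75 to 7.04 in CD44lo. Hoxa5, a gene of lung development, was at 4.98, 5.22, 5.04 and 4.94 in CD44hi and at 4.91, 4.89, 4.89 and 4.94 in CD44lo. Its groups did not overlap, by a margin lost in rounding at replicate 4, and the difference was 0.14 (limma adjusted p = 0.573). Hoxa4 was at 5.38, 5.75, 5.53 and 5.37 in CD44hi and at 4.90, 5.70, 5.04 and 5.02 in CD44lo, where replicate 2 stood apart, and its difference of 0.34 did not pass (limma adjusted p = 0.509). The second Hoxa4 probe set, an x_at set, had a difference of 0.11. Hoxa13, a gene of digits and genitalia, was at 5.31, 5.21, 5.43 and 4.88 in CD44hi and at 5.69, 5.95, 5.14 and 5.18 in CD44lo. Hoxa2, a hindbrain gene, was at 5.27, 5.27, 5.14 and 5.40 against 5.14, 5.16, 4.99 and 4.94. The groups overlapped in both, with differences of -0.28 and 0.21. Hoxa3 and Hoxa11 differed by -0.02 and 0.05, and the second Hoxa3 probe set by 0.23 without passing.

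Partners and regulators of Hox genes were taken from lists. Beside the counts of all these lists, 2.03% of all genes were called higher and 1.78% lower, or 3.08% and 3.11% with the replicate block. Among 10 measured TALE homeobox genes, whose PBX, MEIS and PKNOX proteins bind DNA together with Hox proteins, 1 was higher and 0 lower in CD44hi, with a median difference of -0.07. The higher gene was Tgif1, a TALE repressor that limits TGF-beta signalling, at 10.70 and 9.35 (difference 1.34, SE 0.11, limma adjusted p = 0.00016). Meis2, a Hox cofactor, was at 6.91 and 7.65 without passing (limma adjusted p = 0.167), and it passed as lower with the replicate block (limma adjusted p = 0.0126). Meis1, the partner of Hoxa9 in leukaemia, was at background, at 4.11 and 4.19. Of 15 MLL and trithorax genes 0 were called, with a median of 0.01; Aff1 (-0.11) and Kmt2c (-0.27) had the smallest p, and 0 were called under the block. Of 21 Polycomb genes 2 were higher, Pcgf2 by 0.57 and Cbx8 by 0.47, and 1 was lower, the PRC2 cofactor Jarid2, with a difference of -0.63. The median of the list was -0.0047.

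None of the 11 measured homeobox genes linked to the Hox clusters (Evx, Mnx, Meox, Cdx, Gsx and Pdx genes) was called, with a median of 0.04; Meox1 (0.14) and Cdx1 (-0.09) had the smallest p. None of 14 homeobox genes of blood and T cell leukaemia was called, with a median of 0.08. In this list Dlx1 and Dlx2, which pattern forebrain and jaw, were at 6.97 and 6.20 and at 8.36 and 6.88, short of the threshold (limma adjusted p = 0.0808 and 0.0890). Of 13 genes of retinoic acid input, a known activator of Hox clusters, 0 were called, with a median of 0.07; Crabp2 (0.58) and Cyp26a1 (0.16) had the smallest p. Crabp2, which carries retinoic acid in the cell, had a difference of 1.24 between arrays 1 and 3 and of -0.07 between arrays 2 and 4, and the retinoid receptor gene Rxra of 0.35 and -0.97. Both changes between the pairs passed (limma interaction adjusted p = 0.0398 and 0.0097), where 1.52% of all genes passed. At an unadjusted p under 0.05, the blood and leukaemia list held Dlx1 and Dlx2, and the MLL, Hox-linked and retinoic acid lists held 0 genes. The TALE list held 1 higher and 2 lower genes (Tgif1, Meis2 and Tgif2). The Polycomb list held 2 higher and 2 lower (Pcgf2, Cbx8, Jarid2 and Cbx6). Over all genes 6.32% were higher and 6.29% lower at that threshold.

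Hox genes are also active in stromal and stem cells, so markers of other cell types were read beside them. Over all genes 2.03% were called higher and 1.78% lower. Of 11 fibroblast and stromal markers 1 was called, Pdgfra, higher by 2.97, and with the replicate block Postn, which had a difference of -2.40, passed as lower. The collagen genes Col1a1 and Col1a2 were between 5.55 and 5.67 in both groups, and the summed linear intensity of the list ranged from 5756 to 8237 in CD44hi and from 6185 to 7637 in CD44lo. Fn1, the brightest gene of that list, was at 12.50 and 12.26 and weighs most in these sums. Of 7 stem and progenitor markers 0 were called, with sums of 274 to 316 and 282 to 325, and Kit lay near background at 4.06 and 3.98. B cell markers summed to 3032 to 5712 in CD44hi and 199 to 237 in CD44lo, with Ebf1 (11.89 and 5.30) as the 1 called gene of 7, while the defining markers Cd79a and Pax5 stayed between 5.32 and 5.49. Every B cell marker other than Ebf1 had group means of 5.49 or less, so the gap between these sums is largely that of Ebf1. Ms4a1, another B cell marker, was at 4.99 and 3.68 with groups that did not overlap (difference 1.31, limma adjusted p = 0.0961, unadjusted p under 0.05). Of 6 endothelial markers Pecam1 was called, of 7 epithelial markers Krt18, and of 8 myeloid and 4 erythroid markers none (unadjusted p under 0.05 for Mpo and Klf1). Endothelial markers summed to 929 to 1473 in CD44hi and 508 to 716 in CD44lo, and epithelial markers to 2182 to 4690 and 2660 to 3794. Pecam1 was at 10.02 and 9.04, and the other endothelial markers had group means between 3.97 and 5.05. The gap between the endothelial sums is therefore largely that of Pecam1. Epcam, the brightest epithelial marker, was at 11.42 and 11.37 and weighs most in the epithelial sums. Its difference was 0.79 between arrays 1 and 3 and -0.68 between arrays 2 and 4. The change between the pairs passed for Epcam, Pdgfra and Postn (limma interaction adjusted p = 0.0198, 0.0333 and 0.0326), where 1.52% of all genes passed. Myeloid markers summed to 237 to 253 and 233 to 246, and erythroid markers to 228 to 339 and 206 to 239. Thy1 stands in both the T cell and the stromal list, and Meis1 in both the TALE and the stem cell list. The part of other cells in the Hoxd difference was not tested.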

How the data were processed

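RNA of 4 CD44hi and 4 CD44lo samples was measured on arrays. The authors deposited intensities on a linear scale, made by RMA per the submitters' processing notes, and log2 was taken of the deposited values with no pseudocount. Array medians ranged from 320 to 339, and depth does not apply to arrays, whose number limits the precision. Of 22690 probe sets, 64 controls were left out. Of the rest, 20380 had 1 symbol, 691 several and 1555 none, and those with several or none were not named. RefSeq held 20351 of the single symbols, and 0 changed. The probe set of highest mean stood for each of the 12393 genes.

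Differences were tested with limma 3.58.1 in R 4.3.3 (lmFit and eBayes, no covariates), with Benjamini-Hochberg adjustment over all genes and a threshold of 0.05. The code was tested on simulated data. Same-numbered samples deviated together (correlations 0.40 to 0.57, all 4 pairs), and a fit with the replicate number as a block is given where it changes a call. CD44hi and CD44lo arrays of different numbers also deviated together when 1 was set against 3 or 2 against 4 (correlations 0.37 to 0.52). These values therefore do not show that the number itself pairs the samples. Other normalizations, filters, probe set choices, variance models, thresholds and left-out arrays were tried. The members and gene lists were chosen with earlier results of these data known. Array values are given for members called with or without the block, not overlapping, above the median of all genes or among the 10 other largest differences. In each list the called genes are named, or those of smallest p. The marker genes Postn, Cd79a, Pax5, Col1a1, Col1a2, Fn1, Epcam, Mpo, Klf1, Ms4a1, Cd2, Cd5 and Thy1 were named after their values were seen. The same holds for the retinoid gene Rxra, the TALE gene Tgif2 and the Polycomb gene Cbx6. Hox probe sets with several symbols, 3 in all, were not used.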

Additional observations from a re-analysis of the deposited data

Results flagged for a closer look

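Single arrays stood far from the other 3 of their group in 3 of the 62 Hox gene groups examined, where chance gives about 1 in 20. Hoxb13 was at 5.92 in CD44hi replicate 4, against 5.64 to 5.69 in the others. Hoxc4 was at 12.43 in CD44lo replicate 2, against 12.57 to 12.58. Hoxd13 was at 4.31 in CD44lo replicate 4, against 4.66 to 4.72. The Hoxd8 difference between CD44hi and CD44lo was larger between arrays 2 and 4 than between arrays 1 and 3, by 0.71 on the log2 scale (limma interaction, adjusted p = 0.0388), and what the numbers stand for is not known.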

How the results depend on the processing

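For the 12 Hox genes followed singly, 244 of 279 values under alternatives kept direction and side of the threshold, 29 newly passed, 4 no longer passed and 2 reversed. The 2 were Hoxd8 with array weights (-0.048) and Hoxc8 in replicates 2 and 4 (0.018). Over all genes, 252 were higher and 220 lower. These counts were 102 and 113 among genes above the median, 403 and 418 when arrays were weighted, 382 and 385 with the replicate block, 422 and 450 in replicates 1 and 3, and 141 and 100 at 0.01. Added after seeing the data, averaging arrays 1 with 3 and 2 with 4 gave 19 and 4, those averages with the pair as a block 167 and 116, and the pair as a block alone 522 and 544. Leaving out 1 array gave 178 to 230 and 127 to 226, with 128, 142 and 127 lower without CD44lo replicates 2, 3 and 4.

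The 3 higher Hox genes became 1 above the median of all genes, where Hoxd9 and Hoxd11 were not tested, and 0 with averaged arrays, and were 3 without any 1 array. They were 4 with quantile normalization, array weights, the pair as a block or 0.10, Hoxb4 being added, and 4 in replicates 2 and 4, with Hoxd8. In replicates 1 and 3 the count was also 3, but Hoxd9 did not pass there (limma adjusted p = 0.0567). Hoxd10 and Hoxd11 passed, and the remaining gene was not among those followed singly. Of the Hox genes not followed singly, Hoxa4 had the largest positive difference in replicates 1 and 3, 0.49. The count of lower Hox genes, 0, became 1 with quantile normalization, the mean of probe sets or trend and robust eBayes (Hoxb2), the probe set of largest variance (Hoxc6), the replicate block or averaged arrays with a block (Hoxa10). It was 5 with array weights, 4 in replicates 1 and 3 or with the pair as a block, 3 at 0.10, and 0 to 1 without 1 array (Hoxc9 without CD44hi replicate 4, Hoxb2 without CD44lo replicate 2). The median Hox difference was -0.22 above the median of all genes, and -0.05 to 0.0086 without 1 array. Groups did not overlap for 3 Hox genes above that median, 17 in replicates 1 and 3, 18 in replicates 2 and 4, 19 with averaged arrays and 8 to 11 without 1 array. With 2 values a group, 54.0%, 45.8% and 31.5% of all genes did not overlap in replicates 1 and 3, replicates 2 and 4 and averaged arrays. Above the median and without 1 array the share of all genes was not computed, so those counts cannot be read against it. The 1 Hox gene with an interaction became 0 above the median, where Hoxd8 was not tested, and with the largest-variance probe set, trend and robust eBayes, array weights or 0.01, and 0 to 2 without 1 array. The cause of these changes was not tested. Signals near the bacterial controls limit the dim Hox genes.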
